A study of Mus musculus with 22 samples.

Results

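Dazl, Tex19.1, Sohlh2, Taf7l, Brdt, Stk31, Tuba3b, Dpep3 and Tex101 are genes of the germ line, and their messenger RNA was followed here in mouse chondrocytes and cartilage that had lost the DNA methyltransferase Dnmt1. They were taken by exact match of the gene symbol, which found 9 of 34866 rows in each of the day 0 and day 3 culture tables and 9 of 23911 rows in the cartilage table. The 9 genes were selected on their measured difference between genotypes in these same libraries, so every genotype value of theirs below is a description without a test. For the 9 genes, p-values are given only for contrasts that were not themselves used in the choice, such as day 3 against day 0 within a genotype. These contrasts share libraries with the genotype comparisons, so their p-values are not fully free of the choice. Genotype p-values of other genes come from lists that were also chosen with results of these data known, and are not independent evidence of a direction.

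The series holds 22 mouse RNA samples in 6 groups. Control cultures, labelled with the genotype Dnmt1 flox, and cKO cultures, labelled Prrx1-Cre;Dnmt1 flox/flox, were primary chondrocytes of knee articular cartilage from postnatal day 3 to 5 mice. They were sampled without treatment (day 0, 3 control and 3 cKO) or after 3 days of bone morphogenetic protein 2 (BMP2, day 3, 4 control and 4 cKO), which the labels give as 100 ng/µl. The labels carry the BMP2 protocol on every culture and a treatment tag on those of day 3 alone, so the day 0 cultures were read as untreated from the missing tag. Cartilage of postnatal day 5 mice, treated with collagenase to remove connective tissue, gave 4 flox and 4 cKO samples, of which replicates 1 and 2 were male and replicates 3 and 4 female in each genotype. All groups carried loxP-flanked Dnmt1, and the labels do not say whether any control also carried Cre. Prrx1-Cre is active in the early limb mesenchyme and its descendants, so Dnmt1 was lost in the lineage of these cells before they became chondrocytes, and cells of other lineages in a sample kept it. The labels call the culture replicates biological but do not say which animals they came from, so the p-values measure the spread between these samples.

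Germ line genes of this kind are expressed in the gonad and are kept silent in most somatic cells, many of them through methylation of CpG sites around their start. DNMT1 copies methylation onto the new DNA strand at each cell division, and when it is missing methylation is lost as cells divide. The mRNA data say nothing directly on methylation at these genes, which was not measured in the libraries used here.

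Start sites of the 9 genes had more CpG dinucleotides than the median promoter. In the RefSeq windows on GRCm38.p6, which run from 250 bases before to 50 bases after a start, the 10 windows of the 9 genes held 12 (Dpep3) to 29 (Stk31) CpG, and the median over 32841 windows of all genes was 7. At least 12 CpG were found in 39.6% of all windows. Dazl had 28 CpG at an observed-to-expected ratio of 0.80, Brdt 23 at 0.74, and Dpep3 was lowest at 0.46. A GC content above 50% together with a ratio above 0.6, the usual mark of a CpG island, was met by 5 of the 9 genes (Dazl, Brdt, Stk31, Tuba3b and Tex101) and by 33.3% of all windows. The 250 bases before the start are printed for 5 genes that differ most in what follows: Dazl and Tex19.1, which were near 0 in controls, Brdt, which was not, and Tuba3b and Dpep3, which moved in opposite directions at day 3. CpG dinucleotides are in capitals, and each sequence reads 5′ to 3′ on the strand of the gene.
Dazl (chr17:50293621-50293870, minus strand): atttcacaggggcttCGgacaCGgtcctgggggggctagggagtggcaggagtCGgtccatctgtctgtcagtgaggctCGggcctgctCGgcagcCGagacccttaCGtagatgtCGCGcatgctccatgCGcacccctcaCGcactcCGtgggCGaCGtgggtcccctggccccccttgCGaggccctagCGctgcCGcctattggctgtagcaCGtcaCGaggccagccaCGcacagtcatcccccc
Tex19.1 (chr11:121145893-121146142, plus strand): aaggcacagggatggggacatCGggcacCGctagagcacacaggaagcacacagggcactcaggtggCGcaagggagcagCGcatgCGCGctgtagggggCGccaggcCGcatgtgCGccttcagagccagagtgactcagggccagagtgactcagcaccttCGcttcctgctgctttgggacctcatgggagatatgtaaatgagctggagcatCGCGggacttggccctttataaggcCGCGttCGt
Brdt (chr5:107330944-107331193, plus strand): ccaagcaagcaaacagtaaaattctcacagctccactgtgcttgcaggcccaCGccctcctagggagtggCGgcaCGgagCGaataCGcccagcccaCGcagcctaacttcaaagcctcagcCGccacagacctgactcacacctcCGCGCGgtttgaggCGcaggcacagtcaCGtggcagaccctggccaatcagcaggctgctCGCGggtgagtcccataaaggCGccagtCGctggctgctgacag
Tuba3b (chr6:145615713-145615962, plus strand): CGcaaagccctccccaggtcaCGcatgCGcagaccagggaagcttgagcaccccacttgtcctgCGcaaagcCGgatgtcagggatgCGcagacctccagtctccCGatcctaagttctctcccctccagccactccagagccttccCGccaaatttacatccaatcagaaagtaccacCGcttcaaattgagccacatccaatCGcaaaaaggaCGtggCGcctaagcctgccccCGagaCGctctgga
Dpep3 (chr8:105979420-105979669, minus strand): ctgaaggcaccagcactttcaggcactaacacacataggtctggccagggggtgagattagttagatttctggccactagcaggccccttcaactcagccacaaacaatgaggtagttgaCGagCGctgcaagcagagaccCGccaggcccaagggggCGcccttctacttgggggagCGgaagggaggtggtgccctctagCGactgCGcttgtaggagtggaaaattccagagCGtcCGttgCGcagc

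The capitals run through the whole Dazl stretch, which holds 20 CpG, whereas the part of the Dpep3 stretch farthest from the start has none of its 10 CpG. Short motifs known from germ line promoters were looked for on either strand. The core TCCCGC, bound by E2F6, a repressor of germ line genes, was found before Tex19.1 (leftmost base 33 before the start) and Tuba3b (106 before), and in 20.0% of all windows. The E-box CACGTG was found for Taf7l, Brdt and Stk31 and in 7.2% of all windows, and the cyclic AMP element TGACGTCA was found for 0 of the 9 genes and in 1.8% of all windows. No motif was shared by all 9 genes. For Tex101 and Tuba3b the RefSeq start lies inside the gene as the annotation used for positions draws it, so their windows may not be the start used. That annotation starts Tuba3b at position 145615757, within the stretch printed above. Most of that stretch and its TCCCGC lie after this position. The RefSeq starts of Dazl, Sohlh2, Brdt and Dpep3 lie inside the annotated gene by fewer bases.

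**Figure D1:**
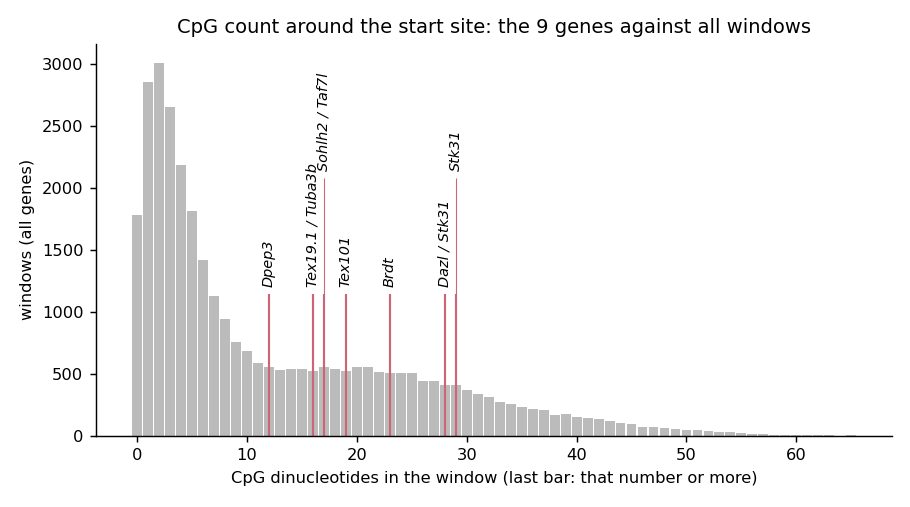
Number of CpG dinucleotides in the promoter window of every gene (grey bars, number of windows against CpG count) and of the 9 germ line genes (red lines). The windows of the 9 genes hold 12 to 29 CpG and all lie above the median of 7, within the long right shoulder of the distribution.

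The day 0 libraries held 41749327 to 51741478 counts in all, those of day 3 14434197 to 18918714, and those of cartilage 1100198 to 1888896. Levels are given as CPM, which is a count divided by the scaled size of its library. A gene with at most 3 counts in a library was taken as at the floor, and this equals 0.0582 to 0.0721 CPM in day 0 libraries, 0.148 to 0.206 in day 3 libraries and 1.55 to 2.75 in cartilage libraries. Dnmt1 itself was lower in cKO: the day 0 means were 157.7 and 29.0 CPM, the day 3 means 69.0 and 25.8, and the cartilage means 42.5 and 13.2. In the deposited estimated counts of the same cartilage samples the Dnmt1 means were 52.9 and 30.6 CPM, a ratio of 0.593 where the whole-number counts gave 0.320. Summed chondrocyte markers were 124100 to 131500 CPM in the control and 47390 to 57410 in the cKO libraries of day 0, and muscle markers were 7.95 to 9.07 in control and 57.0 to 63.5 in cKO. Of 5 muscle markers tested at day 0, 4 were called higher in cKO, where 33.0% of all genes were. Myod1 had 0 counts in the day 0 controls and 360 to 622 in cKO. Des read 1.74 and 21.2 CPM in control and cKO, Tnnt3 6.26 and 26.3, and Myh3 0.0870 and 0.851. The muscle markers Myog and Myl1 had at most 1 count in any day 0 library. At day 3 the cKO culture of replicate 4 stood apart, with 1114 CPM of chondrocyte markers where the other cKO cultures had 10880 to 15370, 107.2 CPM of muscle markers where they had 860.4 to 1436, and the lowest Dnmt1 of all libraries (10.9 CPM). Its osteoclast markers summed to 354.8 CPM, where the other cKO cultures had 96.43 to 114.0. Control cultures at day 3 had 80520 to 97100 CPM of chondrocyte markers and 0.725 to 1.62 CPM of muscle markers, with no overlap with the cKO cultures in either sum. Results that rest on the replicate 4 culture are also given without it. In cartilage all control libraries were in library pool 1 and all cKO libraries in pool 2, so pool and genotype cannot be told apart there. Chondrocyte markers summed to 57720 to 87760 CPM in control and 25940 to 54360 CPM in cKO cartilage, with 2 of 7 tested called lower. Muscle markers summed to 11.9 to 15.8 and 56.2 to 87.3 CPM, with 2 of 2 tested called higher. These were Tnnt3, at 57.5 CPM in cKO cartilage, and Des, at 15.2, whereas Myog had 0 counts there. Of all genes in cartilage, 3.15% were called higher and 3.04% lower. Osteoclast markers summed to 123.8 to 451.5 CPM in control and 57.9 to 117.7 in cKO cartilage, with 3 of 3 tested called lower, and blood markers to 153.1 to 759.4 and 17.6 to 335.4, with 2 of 2 tested called lower. In the cultures blood markers were low but went the other way. They summed to 1.432 to 1.817 CPM in control and 3.941 to 4.055 in cKO at day 0, with 3 of 3 tested called higher. At day 3 the sums were 0.9008 to 1.371 and 6.075 to 12.05 CPM, with 2 of 2 called higher, also without replicate 4. Of all genes 33.0% were called higher at day 0 and 25.5% at day 3. The part of these shifts in the values of the 9 genes was not tested. In bulk RNA, more cells that express a gene and more RNA per cell cannot be told apart.

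The regulators Dazl, Tex19.1 and Sohlh2 were at a few reads in control libraries and among the higher of the 9 genes in cKO. Dazl encodes an RNA-binding protein that licenses primordial germ cells for gamete development. Its counts in the day 0 control libraries were 6, 3 and 3, and in the cKO libraries 1710, 1388 and 2016, which is 0.131, 0.0634 and 0.0693 CPM against 41.1, 31.9 and 39.1 CPM. The means were 0.0879 ± 0.0375 (SD, n = 3) and 37.4 ± 4.85 CPM (SD, n = 3), a ratio of 425 with a 95% exact binomial counting interval of 243 to 823. At day 3 the 4 control libraries held 0, 2, 5 and 3 counts of Dazl and the cKO libraries 24.0, 23.5, 20.5 and 40.7 CPM, a ratio of 174 (94.4 to 363). In cartilage the control libraries had 0 counts and the cKO libraries 88, 103, 70 and 79, or 73.6 ± 11.9 CPM (SD, n = 4), at least 26.8-fold above the highest floor of a control library. The lowest cKO library lay far above the highest control library in each of the 3 settings. Intervals and floors here and below cover counting error only.

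Tex19.1, a mammal-specific germ cell protein that restrains retrotransposons, had 1, 2 and 2 counts in the day 0 controls and 2328, 2281 and 2996 in cKO, or 55.5 ± 2.90 CPM (SD, n = 3). Its ratio of 1517 (650 to 4674) at day 0 was matched by 1460 (404 to 12060) at day 3, where the cKO cultures read 43.9, 49.0, 41.1 and 46.0 CPM and the controls held 0 or 1 count. Cartilage gave 0 counts in all 4 controls and 46, 55, 42 and 45 in cKO. The cKO libraries of Tex19.1 were close to each other, with a coefficient of variation of 5.22% at day 0 and 7.42% at day 3, against 13.0% and 33.8% for Dazl. Sohlh2, a helix-loop-helix transcription factor of early spermatogonia and oocytes, held 1, 0 and 2 counts in the day 0 controls and 2749, 2564 and 3126 in cKO, a ratio of 2806 (960 to 13610). At day 3 its cKO cultures read 47.0, 51.8, 47.9 and 41.3 CPM with at most 1 count in any control. In cartilage cKO it was at 19.3 ± 4.59 CPM (SD, n = 4), at least 7.03-fold above the control floor.

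Taf7l and Brdt differed from these in that control cultures also expressed them. Taf7l, an X-linked paralog of a TFIID subunit that takes part in spermatid transcription, had 41, 43 and 42 counts in the day 0 controls and 589, 535 and 717 in cKO. Its means of 0.925 ± 0.0398 and 13.5 ± 1.01 CPM (SD, n = 3 each) give a ratio of 14.6 (12.2 to 17.6), and at day 3 the ratio was 13.8 (9.78 to 20.2). In cartilage the controls had 0 counts and the cKO libraries 37, 41, 35 and 26. The control means in culture, 0.925 CPM at day 0 and 0.534 at day 3, lie below the cartilage floor of 1.55 to 2.75 CPM. The 0 counts of Taf7l in control cartilage therefore do not show a lower level than in control cultures. Brdt, a testis-specific bromodomain protein that binds acetylated histones in spermatids, had 98, 151 and 103 counts in the day 0 controls and 314, 301 and 307 in cKO. That is 2.57 ± 0.550 and 6.81 ± 0.800 CPM (SD, n = 3 each), a ratio of 2.61 (2.31 to 2.96), with no overlap of the libraries. At day 3 the controls read 5.96, 5.70, 4.50 and 5.54 CPM and the cKO cultures 5.51, 7.31, 6.52 and 6.17 CPM, so the groups overlapped and the ratio was 1.18 (1.03 to 1.36). In cartilage the counts were 13, 7, 7 and 14 in control and 16, 14, 16 and 15 in cKO, and after scaling the groups did not overlap, with a ratio of 1.79 (1.18 to 2.72). Brdt was thus the only one of the 9 genes with more than 3 counts in control cartilage.

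Among the gamete genes, Stk31, a testis-enriched kinase-like protein with a tudor domain, stayed low. It had 1, 2 and 2 counts in day 0 controls and 119, 112 and 129 in cKO (2.65 ± 0.189 CPM, SD, n = 3), and 0 counts in all day 3 controls against 73, 87, 78 and 72 in cKO. In cartilage it had 0 counts in the controls and 0, 1, 4 and 1 in cKO, which is at or near the floor, and no fold is given. Tuba3b, an alpha-tubulin made mainly in testis, had 2, 1 and 2 counts in day 0 controls and 3313, 3391 and 4228 in cKO, 79.8 ± 2.09 CPM (SD, n = 3). At day 3 its controls held 0 counts and its cKO cultures read 16.6, 23.7, 18.4 and 7.67 CPM, at least 80.7-fold above the control floor, and cartilage gave 0 counts against 17, 10, 16 and 20. Its transcript shares 96.5% of 1447 aligned bases with that of Tuba3a on the transcripts used here, and the culture counting method is not given, so the split between the pair is uncertain. It also shares 92.2% of 1353 aligned bases with Gm5366, which is not part of the sum that follows. The sum of Tuba3a and Tuba3b was 121.9 ± 2.60 CPM in cKO at day 0 (SD, n = 3), 25.9 ± 11.4 at day 3 (SD, n = 4) and 20.5 ± 5.84 in cartilage (SD, n = 4), and 0 in the day 3 and cartilage controls. In the estimated counts of the cartilage samples the sum in cKO was 35.8 ± 10.9 CPM (SD, n = 4), and Tuba3b alone was at 22.5 CPM where the whole-number counts gave 13.6. Tuba3b took 59.9 to 73.5% of the pair's whole-number or culture counts in the cKO libraries of the 3 settings.

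The 2 surface proteins were as sharply divided by genotype. Dpep3, a membrane dipeptidase of meiotic germ cells, had 0, 0 and 1 count in the day 0 controls and 368, 298 and 352 in cKO, or 7.51 ± 1.16 CPM (SD, n = 3). The ratio of 1016 has a wide counting interval (182 to 40150) because the controls held 1 count in all. At day 3 Dpep3 read 39.1, 30.8, 31.7 and 30.9 CPM in cKO with 1 count in 1 of 4 controls, and in cartilage 31, 26, 22 and 18 counts in cKO with 0 in the controls. Tex101, a GPI-anchored partner of Dpep3 that marks germ cells and is needed for sperm migration, had 0, 1 and 2 counts in day 0 controls and 111, 125 and 111 in cKO (2.56 ± 0.370 CPM, SD, n = 3). At day 3 it had 0 counts in the controls and 4.05, 3.21, 3.76 and 1.79 CPM in cKO, and in cartilage 0 counts against 7, 6, 7 and 8.

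**Figure D2:**
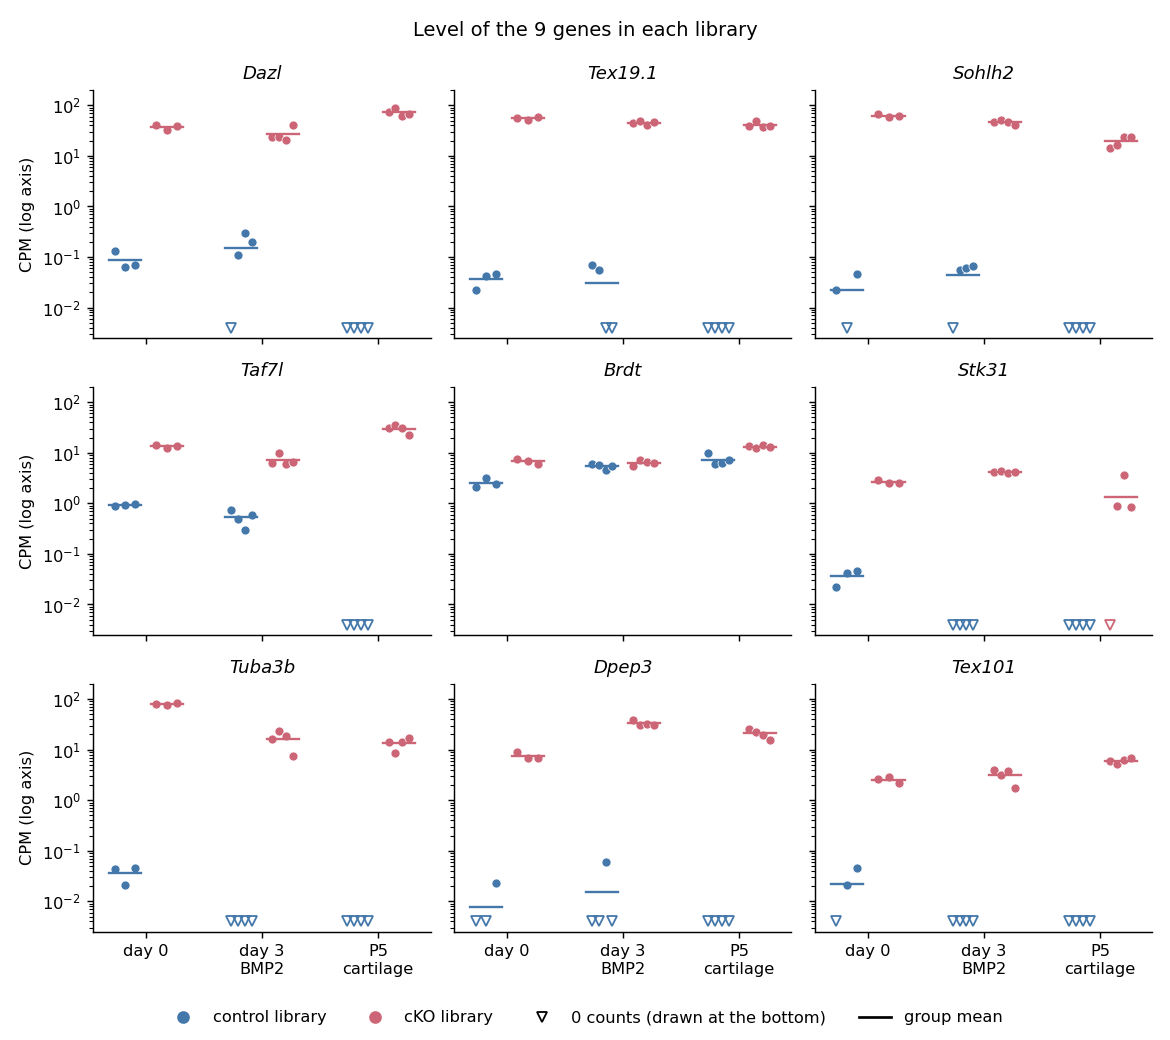
Level of each gene in every library (CPM, log axis) for control (blue) and cKO (red) at day 0, at day 3 with BMP2 and in postnatal day 5 cartilage, with group means as lines. Libraries with 0 counts are drawn as open triangles at the bottom. For 7 of the genes the control cultures sit at or near the floor, Taf7l and Brdt have control expression, and Brdt alone overlaps between genotypes at day 3.

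Counted over the 9 genes, all 9 passed the filter on low counts at day 0 and were called higher in cKO, where 33.0% of 15530 genes were called higher. At day 3 all 9 passed the filter and 8 were called higher, Brdt being the exception, where 25.5% of 13924 genes were called higher; without the cKO culture of replicate 4 the number was again 8. In cartilage 7 passed the filter and 6 were called higher, where 3.15% of 8793 genes were called higher. Stk31 and Tex101 were too low there to be tested and Brdt was not called. Nothing is read from these counts because the genotype difference chose the genes, and 6 of the 7 tested in cartilage passed the filter through their cKO libraries alone. The 9 genes' libraries did not overlap between genotypes for 9 genes at day 0, 8 at day 3 and 8 in cartilage. In the deposited estimated counts of the same cartilage samples, the same numbers came out, with 7 tested and 6 called higher. The share of all genes without overlap, and the share called in the estimated counts, are not given here. Nothing is read from these numbers either.

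Per kilobase of exon, the cKO cultures at day 0 were ordered from Tuba3b (45.0 ± 1.18 CPM per kb, SD, n = 3) through Tex19.1 (29.6 ± 1.55), Sohlh2 (26.2 ± 1.58), Dazl (9.78 ± 1.27), Taf7l (5.99 ± 0.452), Dpep3 (4.42 ± 0.682), Tex101 (1.55 ± 0.223) and Brdt (1.33 ± 0.156) to Stk31 (0.817 ± 0.0584). Only the neighbours Tex101 and Brdt overlapped in their libraries. At day 3 Tex19.1 led at 24.0 ± 1.78 CPM per kb (SD, n = 4), followed by Sohlh2 at 19.9 ± 1.84 and Dpep3 at 19.5 ± 2.35, which overlapped. Tuba3b came next at 9.35 ± 3.76 and overlapped Dazl at 7.11 ± 2.40, and Tex101, Stk31 and Brdt overlapped at the low end. Levels per kilobase were not compared in cartilage, where the library method reads only the 3′ ends. Gene lengths came from an annotation that may differ from the one behind the counts.

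**Figure D3:**
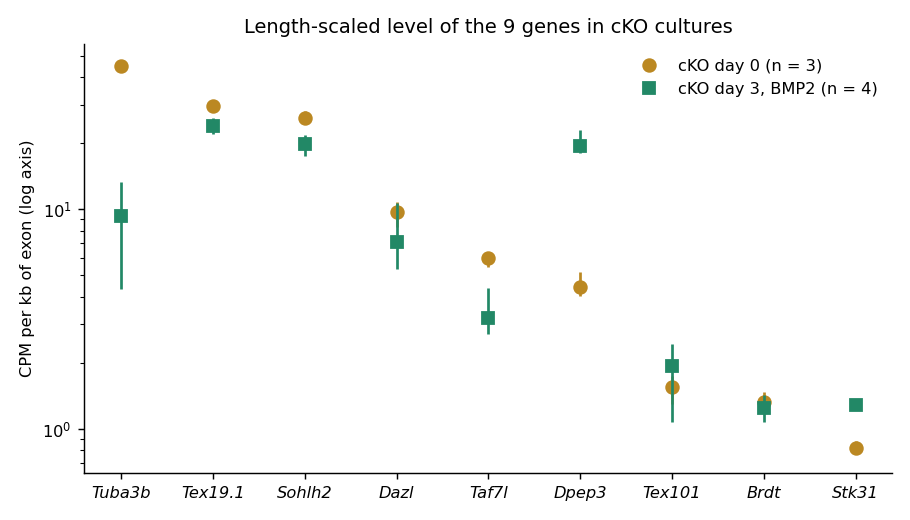
Mean level per kilobase of exon (CPM per kb, log axis) of the 9 genes in cKO cultures at day 0 (circles) and at day 3 with BMP2 (squares), with vertical lines from the lowest to the highest library. Tuba3b leads at day 0 with 45.0 and drops to 9.35 at day 3, whereas Dpep3 goes from 4.42 to 19.5.

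Whether BMP2 treatment altered the level reached in cKO cells was asked by setting day 3 against day 0 within the cKO cultures. This contrast was not used to choose the genes, but its libraries were part of the genotype comparisons that were. Dpep3 and Stk31 rose, Tuba3b, Taf7l, Sohlh2 and Tex19.1 fell, and Dazl, Tex101 and Brdt did not pass the test. The 2 genes that rose compare with 32.4% of 14909 genes called higher, and the 4 that fell with 29.8% called lower. The 9 genes therefore did not move in 1 direction. Day 3 and day 0 also differ in depth and come from separate tables, and BMP2, time in culture and table change together, so they cannot be told apart. Summed chondrocyte markers in the cKO cultures had a median of 49050 CPM at day 0 and 12660 at day 3, and summed muscle markers 60.0 and 1034. Summed fibroblast markers had medians of 2294 and 9339 CPM. The part of these shifts in the changes below was not tested.

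Dpep3 had the largest rise of the 9 genes, from 8.84, 6.84 and 6.83 CPM at day 0 to 39.1, 30.8, 31.7 and 30.9 CPM at day 3, with no overlap. The fitted change was 2.14 on the log2 scale (SE 0.185, edgeR adjusted p = 9.32e-07), a 4.42-fold rise, and every alternative setting kept it between 2.03 and 2.27. Stk31 rose from 2.65 to 4.16 CPM, by 0.65 (SE 0.165, adjusted p = 0.00614). Its 4 cKO cultures at day 3 lay between 4.07 and 4.30 CPM, with a coefficient of variation of 2.38%.

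Tuba3b fell from 79.6, 77.9 and 82.0 CPM to 16.6, 23.7, 18.4 and 7.67 CPM, again without overlap. Its change was -2.26 (SE 0.275, adjusted p = 5.94e-05), and without the cKO culture of replicate 4, the lowest, the day 3 mean was 19.6 ± 3.69 CPM (SD, n = 3). Taf7l fell by 0.90 (SE 0.187, adjusted p = 9.93e-04), from 13.5 to 7.19 CPM. Sohlh2 changed by -0.40 (SE 0.118, adjusted p = 0.0104) and Tex19.1 by -0.30 (SE 0.103, adjusted p = 0.0214). These smaller falls depended on single libraries: without the cKO day 0 culture of replicate 1 the adjusted p was 0.0604 for Sohlh2 and 0.0689 for Tex19.1, and without that of replicate 3 it was 0.0897 for Tex19.1.

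Dazl went from a mean of 37.4 to 27.2 CPM, a change of -0.46 (SE 0.235, adjusted p = 0.105), and its day 3 libraries ranged from 20.5 to 40.7 CPM. The highest was the cKO culture of replicate 4, which stands apart in its markers. Without it the change was -0.72 (SE 0.143, adjusted p = 5.29e-04), the day 3 mean was 22.6 ± 1.91 CPM (SD, n = 3), and 7 of the 9 genes were called in place of 6. Tex101 had a change of 0.32 (SE 0.329, adjusted p = 0.42) and Brdt one of -0.09 (SE 0.158, adjusted p = 0.633), so their levels in cKO could not be told apart between the days.

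Among germ line genes outside the 9, taken from lists, the same contrast in cKO gave both rises and falls, with more falls among regulators and oocyte genes. Of all genes 32.4% were called higher and 29.8% lower. Of 12 further regulators of germ cells tested, 1 rose and 6 fell, with a median of -0.74 where that of all genes was 0.02. Of 10 sperm genes 3 rose and 2 fell, and of 4 oocyte genes 1 rose and 3 fell. Without the cKO day 3 culture of replicate 4, 2 regulators rose and 6 fell of 12, with a median of -0.60. The sperm genes then gave 3 and 2 of 10, and the oocyte genes 1 and 2 of 4.

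**Figure D4:**
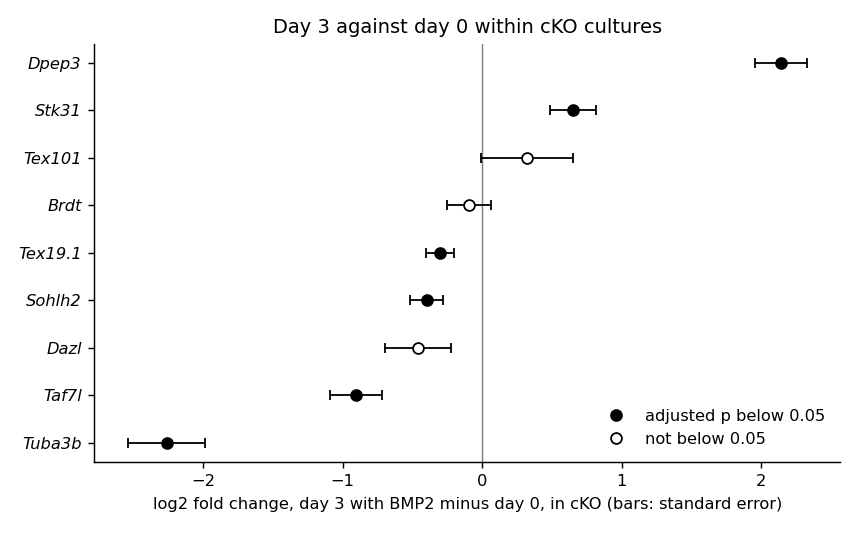
Change of each gene from day 0 to day 3 with BMP2 within the cKO cultures (log2 fold change on the horizontal axis, bars are standard errors, filled circles have an adjusted p below 0.05). Dpep3 (2.14) and Tuba3b (-2.26) stand at opposite ends, and 6 of the 9 circles are filled.

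In the control cultures only Taf7l and Brdt were high enough for the same contrast to be read. Brdt rose there from 2.57 to 5.43 CPM, by 1.08 on the log2 scale (SE 0.166, adjusted p = 1.24e-04), where 28.1% of genes were called higher. Taf7l fell by 0.81 (SE 0.262, adjusted p = 0.0184), where 28.8% were called lower, and without the day 3 control culture of replicate 3 its adjusted p was 0.0569. In the fit of all 14 cultures the genotype difference of Brdt was 1.40 at day 0 and 0.23 at day 3 on the log2 scale, and the difference between these was -1.17 (SE 0.227). Such a difference passed the threshold for 16.8% of 14909 genes. As both genotype values entered the choice of the genes, it is given as a description. The corresponding value for Taf7l was -0.10 (SE 0.344).

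Male and female cKO cartilage could be compared for 7 of the genes, with 2 libraries of each sex and the spread pooled over the 8 samples. None was called, where 4 of 9687 genes, or 0.0413%, were called (7 with DESeq2). In edgeR 0 of the 7 had an unadjusted p under 0.05, where 712 of the 9687 genes had. With so few genes nothing is read from this. Taf7l, which is X-linked, read 31.1 and 35.9 CPM in males and 31.2 and 22.4 in females, a difference of -0.33 (SE 0.313). Dazl read 73.9 and 90.1 CPM in males and 62.4 and 68.1 in females, and Sohlh2 14.3 and 16.6 in males and 23.2 and 23.3 in females.

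Other regulators of germ cells were also higher in cKO cultures. Of 28 further regulators of germ cells, 12 were expressed well enough to be tested at day 0, of which 9 were higher and 1 lower in cKO, with a median log2 fold change of 2.47, where the median of all genes was 0.01 and 33.0% of all genes were called higher and 31.6% lower. At day 3 it was 7 higher and 0 lower of 10 tested, beside 25.5% and 22.6% of all genes, and in cartilage 1 higher of 3, beside 3.15%. A gene silent in controls passes the filter only if cKO cells express it, so the shares of tested genes are not shares of the lists. The lists also overlap, so their counts are not separate observations. Tex19.2 is among the regulators, the relatives and the neighbours below, and Tuba3a and Ly6k are among the sperm genes and the relatives. Ddx4, Dnd1 and Tex14 are among the regulators and the germ cell markers. Tex15, which acts in piRNA-directed silencing in the testis, was the only one of these regulators called in all 3 settings, at 3.28 and 38.2 CPM in control and cKO at day 0 (log2 fold change 3.54, edgeR adjusted p = 4.66e-09), 1.33 and 36.4 at day 3 (4.80) and by 3.32 in cartilage. Tex14, a protein of the bridges between germ cells, rose from 0.325 to 6.52 CPM at day 0 (4.32, adjusted p = 3.92e-07). Stra8, a gatekeeper of meiosis, rose from 0.0870 to 1.09 CPM (3.59, adjusted p = 2.66e-05). Ddx4, the germ cell RNA helicase also known as Vasa, rose from 0.461 to 3.19 CPM (2.78) and Dnd1, an RNA-binding protein of primordial germ cells, from 0.669 to 3.03 CPM (2.17). Their levels are on a scale not corrected for length.

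Genes of the mature gametes were called higher about as often as any gene at day 0. Of 40 sperm genes, 14 could be tested there and 5 were higher and 2 lower in cKO, beside 33.0% and 31.6% of all genes, with a median of 0.10; at day 3 it was 4 and 3 of 10, and in cartilage 0 of 2. Tuba3a stood out with 0.0377 and 42.0 CPM at day 0, but shares its sequence with Tuba3b. Ly6k, a GPI-anchored sperm protein that works with Tex101, went from 0.0211 to 0.848 CPM at day 0 (5.09, adjusted p = 8.61e-05) and from 0 to 4.13 CPM at day 3. Adam3, a sperm surface protein for egg binding, rose from 0.104 to 0.390 CPM (1.89) and Spaca1, of the acrosome, from 1.78 to 5.38 CPM (1.60), whereas Gapdhs, the sperm glycolytic enzyme, fell by 0.80. Of 18 oocyte genes, 6 could be tested at day 0, with 1 higher and 2 lower. Ooep, of the oocyte's subcortical complex, fell by 1.54 at day 0, from 5.70 to 1.96 CPM, and the histone demethylase Kdm1b fell by 0.60. Bmp15, an oocyte growth factor, rose by 0.79 at day 0 (adjusted p = 0.0458), and Tle6, another member of the subcortical complex, rose by 0.54 at day 3 and had a change of 0.03 at day 0.

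Relatives of the 9 genes by sequence or function were called higher in cKO for 11 of the 13 tested at day 0, with a median of 0.43. The day 3 number was 6 of 12 and the cartilage number 1 of 8, and the shares of all genes called higher were 33.0%, 25.5% and 3.15%. Dpep1, a renal dipeptidase of the same family as Dpep3, went from 0.0432 to 13.8 CPM at day 0 (8.20, adjusted p = 6.26e-08) and from 0.669 to 16.2 CPM at day 3 (4.60). Tuba4a changed by 0.77 at day 0 and 2.65 at day 3, and Tuba1c by 0.57 and 0.97. Without the cKO day 3 culture of replicate 4 the day 3 counts were 7 higher of 10 for regulators, 4 higher and 3 lower of 10 for sperm genes, 1 higher and 2 lower of 3 for oocyte genes, and 7 higher and 1 lower of 12 for relatives.

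**Figure D5:**
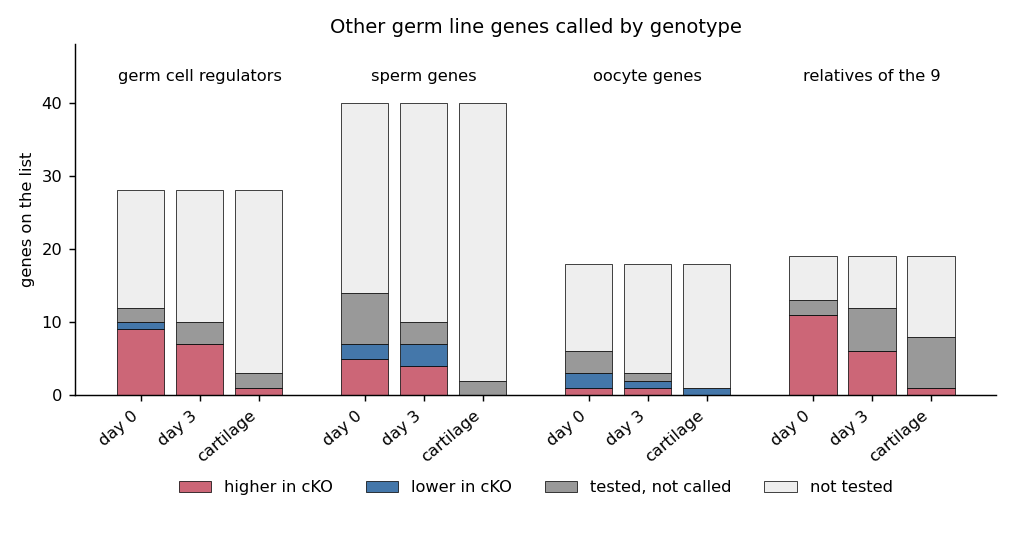
Number of genes on 4 lists of other germ line genes and relatives that were higher in cKO, lower in cKO, tested but not called, or not tested, for day 0, day 3 and cartilage. Of 28 germ cell regulators 9, 7 and 1 were called higher, and most genes on the sperm and oocyte lists were too low to test.

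Genes that define germ cells themselves were mixed. Over 10 such markers the summed level was 1.67 to 2.10 CPM in control and 11.9 to 14.1 CPM in cKO at day 0, and 0.977 to 2.26 and 9.86 to 13.0 CPM at day 3. The cKO sum came mostly from Tex14, Ddx4 and Dnd1. Nanos2, of male germ stem cells, and Figla, of oocytes, had 0 counts in all 14 cultures, the spermatid gene Tnp1 had 0 in every cKO culture, and Nanos3, Prm1 and Zp3 had at most 7 counts in any cKO culture. Gdf9, an oocyte factor, was at 0.250 and 0.270 CPM at day 0. Over 7 markers of gonadal somatic cells the sums were 4.33 to 5.61 CPM in control and 3.93 to 5.18 in cKO at day 0, and of 5 tested 1 was higher and 1 lower in cKO. These were Foxl2, of the ovary, at 0.116 and 0.592 CPM in control and cKO, and Inha, an inhibin subunit, at 2.29 and 1.16 CPM.

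The nearest tested gene on each side of the 9 was looked at. These lay from 1.44 kb (Lmntd1) to 641 kb (Mpp6) away, so they cannot show how far along the chromosome a difference reached. Of 18 nearest genes tested at day 0, 6 were higher and 10 lower in cKO, with a median of -0.42 where that of all genes was 0.01. Of all genes 33.0% were higher and 31.6% lower, so the number of higher neighbours was near the background and that of lower ones above it. The reason for the lower neighbours was not tested. At day 3 it was 4 higher and 5 lower of 12, beside 25.5% and 22.6% of all genes, and in cartilage 1 higher and 1 lower of 7, beside 3.15% and 3.04%. Tex19.2, the paralog 27.5 kb from Tex19.1, rose from 2 counts in all 3 controls to 96 to 129 counts in each cKO library at day 0 (log2 fold change 7.12, adjusted p = 3.73e-07), though the pair shares 94.3% of 140 aligned bases. Uts2r, a receptor gene on the other side of Tex19.1, rose by 4.38. Lmntd1, 1.44 kb from Tuba3b, rose by 2.67 and Lypd3, a relative of Tex101 26.9 kb from it, by 2.29. Against these, Drp2, 3.54 kb from Taf7l, fell by 2.02, and Ccdc169, 9.09 kb from Sohlh2, fell by 1.17. Slc12a4, 7.42 kb from Dpep3, was lower in all 3 settings. The antisense transcript Gm45752, which overlaps Dpep3 and shares 104 aligned bases with its transcript, was not among the genes tested at day 0. Neither were the opposite-strand pseudogenes Gm8152, which overlaps Brdt, and Gm17060, which overlaps Stk31.

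Across the 14 cultures, the non-member gene whose log2 level ran closest to each of the 9 was Gm10040 for Dazl (Pearson r = 0.998), Asz1, a piRNA pathway gene, for Tex19.1 (0.999), Strc for Sohlh2 (0.999), Gm18336 for Taf7l (0.991), Ei24 for Brdt (0.928), Gm10693 for Stk31 (0.999), Pnma5 for Tuba3b (0.998), Olfr1054 for Dpep3 (0.999) and Gm1140 for Tex101 (0.998). These values are descriptions over libraries that share the split by genotype. Brdt was least like any other gene, with 0 genes at r of 0.99 or more, where Tex19.1 had 54.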

How the data were processed

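The 14 culture libraries were made with a strand-marking kit and the 8 cartilage libraries with BRB-seq, a barcoded method that reads 3′ ends, per the labels' protocols. For the cultures the authors deposited estimated counts per gene, in separate tables for day 0 and day 3, which were rounded here to whole numbers; their aligner and counting tool are not given in the sources used here. For cartilage the authors deposited whole-number counts per gene, the values used here, and estimated counts of the same samples, used as an alternative. The submitters' processing notes name UMI-tools 1.1.1, Trim Galore 0.6.7, HISAT2 2.2.1, featureCounts 2.0.1 and DESeq2 1.34.0 for the cartilage samples and the build GRCm38 for all, without saying which table each tool made or whether molecular identifiers were collapsed. Library pools of the cartilage barcodes were read from a list the authors deposited. All per-sample columns were used (0 left out).

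Tests on counts used glmQLFTest, edgeR's quasi-likelihood test (version 4.0.16, R 4.3.3). Libraries were scaled by TMM and low genes removed by filterByExpr with a minimum of 10 and a total of 15 counts. P-values were adjusted by Benjamini-Hochberg across every gene in the fit, and those under 0.05 after adjustment count as calls. Day 0 and day 3 were fitted separately for genotype, cartilage with sex as a covariate, and all 14 cultures together for day 3 against day 0. The day contrast in control cultures, the values of Taf7l and Brdt for the difference between genotype effects, and the counts without the cKO day 3 culture of replicate 4 were added after the data were seen. The fits were tested on simulated data. Of 34866 identifiers in the culture tables, 34582 matched the GENCODE M21 annotation, and 23884 of 23911 in cartilage. Promoter windows are RefSeq's, found for 9 of the 9 genes. Shared sequence means at least 100 aligned bases at 90% identity. The genes named besides the 9 are, for each list, up to 5 called in the most genotype comparisons with ties broken by the day 0 change, every germ cell marker above 3 counts in a cKO library, the nearest tested gene on each side, and the gene most correlated with each of the 9 on log2(CPM + 0.5); Figla, Nanos2, Tnp1, Foxl2 and Inha were named after their values were seen. The 9 genes and all lists were chosen with earlier results of these data known. The alternatives were DESeq2 1.42.0, upper-quartile scaling, no filter, a replicate block, each replicate left out, and those named in the closing section.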

Additional observations from a re-analysis of the deposited data

Results flagged for a closer look

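In groups of 4 libraries, the highest or lowest value was compared with the rest by Dixon's ratio over 25 groups of the 9 genes that were not all equal. Chance alone marks about 1 group in 20 of normally distributed values, a rate that does not hold for groups of a few counts. It marked 4 values. Tex19.1 read 48.1 CPM in the cKO cartilage of replicate 2, where the others read 37.5 to 38.8. Taf7l read 9.825 CPM in the cKO day 3 culture of replicate 2, where the others read 6.05 to 6.52. Dpep3 read 39.09 CPM in the cKO day 3 culture of replicate 1, where the others read 30.8 to 31.7, and 0.06005 CPM in the control day 3 culture of replicate 3, which is 1 count where the others had 0. Where all other values are 0 the ratio is the same whatever the last value, so that mark says nothing about the library. Brdt was marked because its genotype effect differed between the culture days by -1.167 on the log2 scale in the edgeR fit over all 14 cultures; its control level rose while its cKO level had a change of -0.09.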

How the results depend on the processing

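Over all results and alternatives 788 values were recomputed. Of these, 706 were marked as the same, 4 lost and 2 gained a call, 76 moved further and 0 were marked as reversed. The same meant an unchanged side of the threshold, a move of less than the spread, or a similar number of genes called. Outside the genotype comparisons, a change of sign in a result that was not called also counted as the same. This happened for the Taf7l difference between genotype effects, which ranged from -0.30 to 0.10. Fitting all 14 cultures together gave 6260 genes called by genotype at day 0 in place of 10023. Without the filter on low counts 1044 genes were called in cartilage in place of 544, and 129 between the sexes in cKO cartilage in place of 4, where DESeq2 called 7. The cause was not tested.

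With each library left out in turn, genes called ranged from 9106 to 9736 at day 0, 5694 to 7808 at day 3, 362 (without the cKO sample of replicate 4) to 630 in cartilage, 8289 to 9962 for the day contrast in cKO and 7438 to 9780 in control, 1591 to 4051 for the difference between genotype effects, in place of 2509, and 3 to 32 between the sexes. The 1591 came without the day 0 control of replicate 2 and the 4051 without the cKO day 3 culture of replicate 4; 1668 and 1604 came without the day 0 control and cKO cultures of replicate 3. For the sexes, 32, 14, 11 and 9 came without cKO replicates 1 and 4 and control replicates 3 and 4. Of the 9 genes, 4 to 7 were called for the day contrast in cKO, 4 without the day 0 cKO culture of replicate 1, and 0 to 0 between the sexes.

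Same-numbered control and cKO libraries did not deviate together (r of -0.063 to 0.14 at day 0, -0.145 to -0.064 at day 3 and -0.082 to 0.265 in cartilage), so the numbers were not taken as pairs. A replicate block gave 9724 genes at day 0, 5391 at day 3, 576 in cartilage, 9011 for the day contrast in cKO with 7 of the 9 genes called, 8241 in control and 2490 for the difference between genotype effects. Under that replicate block the Dazl change was -0.71 (adjusted p = 0.00682). For the sexes no paired analysis was possible because each replicate number holds 1 sex. Depth limits Stk31 and Tex101 in cartilage, where 3 counts are 1.55 to 2.75 CPM.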
